A study of Mus musculus with 27 samples.

Results

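The anterior pituitary makes 6 peptide hormones from a handful of genes, and its cells are specified in the fetus, when Rathke's pouch buds from the oral ectoderm and meets the floor of the developing hypothalamus. The genes described here are 8 rows of a read-count table of 55416 genes, taken because their symbols are Pomc, Cga, Tshb, Gh, Prl, Pitx1, Lhx3 and Pou1f1. Pomc encodes the precursor of adrenocorticotropin, melanocyte-stimulating hormone and beta-endorphin, Cga the alpha subunit shared by the glycoprotein hormones, Tshb the beta subunit of thyrotropin, Gh growth hormone and Prl prolactin. Pitx1 is a homeobox gene of the oral ectoderm and the hindlimb, Lhx3 a LIM homeobox gene of Rathke's pouch, and Pou1f1 (Pit-1) the POU factor of the cells that make growth hormone, prolactin and thyrotropin.

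RNA of the whole brain, dissected from frozen fetuses that the labels give as female, was sequenced in 27 libraries. The mice were the inbred strains AKR/J and C57BL/6J and the strain B6.Cg-Cav1tm1Mls/J, called Cav1-null, which lacks Cav1 and has the C57BL/6J background, and no group received a treatment. Gestational days (d) 12, 15 and 17 were sampled, counted from the plug as day 1, with 3 libraries for each strain and day. Dams were mated at about 8 weeks of age, and the labels do not say whether the 3 fetuses of a group shared a litter, so that p-values measure the spread between these fetuses alone.

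In the brain, Pomc is also the gene of a small group of neurons of the arcuate nucleus of the hypothalamus. Lhx3 is also a gene of developing motor neurons and V2 interneurons of the hindbrain and spinal cord, and Pitx1 is also transcribed in the mesenchyme of the jaw and hindlimb. The releasing hormones of the hypothalamus act on pituitary cells through receptors such as Crhr1, Trhr, Ghrhr and Gnrhr. Whether a dissected brain keeps the pituitary, which is joined to it by a thin stalk, depends on the dissection, and neither the labels nor the methods say what was done with it.

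The libraries held 26363697 to 39759702 reads on genes, and levels are given in CPM, the count of a gene scaled to a common library size. In 1 library 3 reads, the limit that a count of 0 allows, corresponded to 0.0780 to 0.155 CPM. Low counts in the table were even more often than odd: the value 2 occurred 62370 times and the value 1 occurred 41066 times, so that 2 reads need not be 2 molecules, and such limits cover counting error only. The labels were checked on Cav1, which had at most 16 reads in the 9 Cav1-null libraries and at least 182 reads in the others. Brain markers were present in all libraries, with a summed level of 1876 to 5209.5 CPM over 6 genes. Libraries that stood apart were AKR/J d15 replicate 2, C57BL/6J d15 replicate 1 and Cav1-null d12 replicate 3, in which the muscle regulators Myod1 and Myog summed to 7.47, 1.68 and 4.96 CPM and to at most 0.870 CPM in the other 24. The 3 AKR/J d12 libraries stood apart by reads of embryonic globin (Hbb-y, at least 791562 reads) and of the placental prolactin Prl8a2 (14232, 2182 and 469 reads). C57BL/6J d12 replicate 3 also held trophoblast reads, with a summed level of 64.0 CPM over 6 genes against 34.5 to 743 CPM in AKR/J d12.

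All 8 genes were found, and 4 of them, Pomc, Tshb, Pitx1 and Lhx3, had enough reads for the tests. Per kilobase of annotated exon, Pomc had the highest mean level over the 27 libraries, at 2.44 CPM, with a range of 0.667 to 8.53 CPM. It was followed by Pitx1 at 0.397 CPM, Lhx3 at 0.238 CPM and Tshb at 0.177 CPM, whose ranges over the libraries overlapped. The 4555 exonic bases used for Tshb include a retained intron of 4396 bases, while its spliced transcripts cover 674 bases. The place of Tshb in this order therefore depends on the length used. Cga, Pou1f1, Prl and Gh followed at 0.0224, 0.0194, 0.00472 and 0.00273 CPM per kilobase, levels at which most libraries had no read. The plot of the level of each gene by library shows these scales, from over 10 CPM for Pomc in AKR/J d12 to a single library with reads for Gh.

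**Figure D1:**
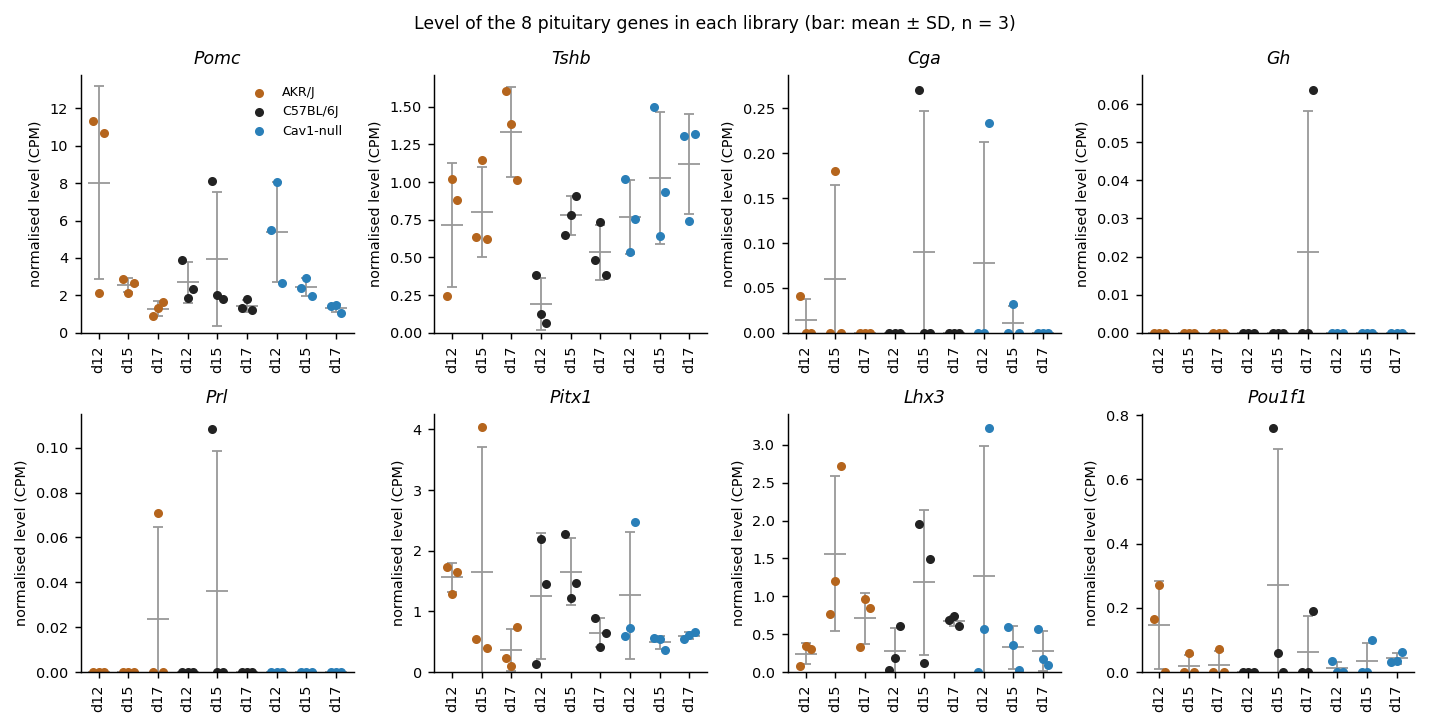
Level of the 8 genes in CPM (y axis, from 0, a scale for each gene) in the 9 groups of strain and day (x axis), with 1 point per library and grey bars for the mean ± SD (n = 3). Pomc is at or under 1.80 CPM in all 9 d17 libraries, while Cga, Gh, Prl and Pou1f1 are at 0 in 22, 26, 25 and 15 of the 27 libraries.

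Among the hormone genes, Pomc had the most reads, with 27 to 299 a library and a total of 2577. Its level in AKR/J was 11.3, 2.11 and 10.7 CPM on d12, 2.87, 2.11 and 2.69 CPM on d15, and 0.883, 1.35 and 1.67 CPM on d17. The d17 libraries of AKR/J lay below all others of the strain, and of the d12 libraries 2 lay far above the d15 libraries and the third lay among them.

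In C57BL/6J, Pomc was at 3.91, 1.85 and 2.32 CPM on d12, 8.10, 2.0 and 1.79 CPM on d15, and 1.31, 1.80 and 1.21 CPM on d17. The d12 libraries lay above the d17 libraries, and the d15 libraries overlapped both, with the highest, at 8.10 CPM, in 1 of the 3 libraries with muscle regulators. In Cav1-null mice the level was 5.49, 8.04 and 2.68 CPM on d12, 2.41, 2.93 and 1.97 CPM on d15, and 1.43, 1.48 and 1.07 CPM on d17, with no overlap between d15 and d17.

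Pomc fell in the late phase, from d15 to d17. Over the 3 strains the log2 fold change was -1.09 ± 0.26 (SE, adjusted p = 0.00246, edgeR's quasi-likelihood test, Benjamini-Hochberg adjustment over all genes, strain as a term, 9 libraries on each day). Pomc was the only 1 of the 4 members tested that was called in this comparison, in which 40.1% of all genes tested were DE and 21.8% were lower on d17. Without the 3 libraries with muscle regulators its change was -0.78 (adjusted p = 0.00199, edgeR), and without the AKR/J libraries it was -1.16 (adjusted p = 0.0270, edgeR). Within a strain, the late change was called in Cav1-null mice, at -0.85 ± 0.28 (adjusted p = 0.0353, edgeR), against a background of 27.3% of genes. That call was lost without d15 replicate 1, d15 replicate 2, d17 replicate 2 or d17 replicate 3, where the changes were -0.69 to -0.91, and in 1 model of all 27 libraries. In AKR/J the late change was -0.92 ± 0.31 (adjusted p = 0.0641) and in C57BL/6J it was -1.41 ± 0.60 (adjusted p = 0.147), both by edgeR and neither called.

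In the early phase, from d12 to d15, the change of Pomc over the 3 strains was -0.78 ± 0.42 (adjusted p = 0.142, edgeR) and was not called. It was called without the 3 libraries with muscle regulators, at -1.16 (adjusted p = 0.0113, edgeR), and without the C57BL/6J libraries, at -1.39 (adjusted p = 0.0160, edgeR). It was not called without the AKR/J libraries, at -0.28, without the Cav1-null libraries, at -0.58, or with library sizes alone, at -0.56. The changes were -1.69 ± 0.57 in AKR/J, -1.11 ± 0.37 in Cav1-null and 0.52 ± 0.62 in C57BL/6J, with adjusted p = 0.0590, 0.0596 and 0.581 in edgeR. With library sizes alone the AKR/J change was -1.07 (adjusted p = 0.142, edgeR), and the 2 d12 libraries that were high in Pomc had TMM factors of 0.678 and 0.675 against 1.04 in the third. The difference between AKR/J and C57BL/6J in this change, -2.25 ± 0.92, did not pass the adjustment (adjusted p = 0.255, edgeR interaction test), but passed it without AKR/J d12 replicate 2, at -2.75 (adjusted p = 0.0411, edgeR).

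Other genes of the hypothalamus differed in their pattern over the AKR/J d12 libraries. Cartpt, which encodes a neuropeptide that arcuate Pomc neurons also make, was at 32.0 and 44.8 CPM in the 2 AKR/J d12 libraries that were high in Pomc and at 2.52 CPM in the third. Agrp, the neuropeptide gene of other arcuate neurons, was at 1.16 and 0.880 CPM in those 2 libraries and at 1.53 CPM in the third, and Nkx2-1, a regulator of the hypothalamus, was at 58.2, 10.2 and 42.5 CPM. The embryonic globin Hbb-y had 2042662 and 3247069 reads in those 2 libraries and 791562 in the third. Over the 3 strains Cartpt fell early, at -1.89 ± 0.43 (adjusted p = 0.00193, edgeR), where Pomc was not called, and was at 0.23 ± 0.21 late (adjusted p = 0.404, edgeR), where Pomc fell. All 3 AKR/J d12 libraries had at most 4 reads of Six6, a gene of the hypothalamus and pituitary, and no read of Prl, Gh or Tbx19, the T-box factor of Pomc cells of the pituitary. Pou1f1 had 4, 8 and 0 reads in them and Cga 1, 0 and 0. In C57BL/6J d15 replicate 1 the pattern was different, with 1.73 CPM of Cartpt and 17 reads of Tbx19, the highest count of that gene. The part of these genes and of tissue makeup in the level of Pomc was not tested. In bulk RNA, fewer cells of a type and less RNA per cell cannot be told apart.

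The genes most like Pomc over the 27 libraries, by Pearson correlation of log2(CPM + 0.5) among 18603 genes, were Rap2c at r = 0.84, Ccdc12 at r = 0.84 and Gm4739 at r = 0.83. The libraries share strain, day and tissue makeup, so that these values describe the pattern and carry no test.

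Pomc was the only member with a junction in the splice table. The table held its first intron, on GRCm39 chr12:4005047-4008075 of the + strand, an intron of 3029 bases between the noncoding first exon and the second exon. The splice sites are shown because a read that joins them comes from spliced Pomc RNA rather than from DNA. Each line gives 10 exon and 20 intron bases of GRCm39, 5′ to 3′, with the intron's first or last pair of bases in capitals.
Pomc donor, chr12:4005037-4005066: tccgcgacagGTaagggtgtctcagctctg
Pomc acceptor, chr12:4008056-4008085: cattgttctgctccttgcAGgggtccctcc

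Across this junction 50 reads were counted in 10 of the 27 libraries. Most were in C57BL/6J d15 replicate 1, with 19 of the gene's 299 reads, and in Cav1-null d12 replicates 1 and 2, with 10 of 156 and 6 of 256. AKR/J d15 replicates 1 and 3 had 4 and 2 reads, C57BL/6J d15 replicate 2 had 2, C57BL/6J d17 replicate 1 had 3, and Cav1-null d15 replicates 1, 2 and 3 had 2, 1 and 1. No junction read was listed in AKR/J d12, where the gene had 542 reads in all, nor in C57BL/6J d12 with 254, AKR/J d17 with 116 or Cav1-null d17 with 123. The plot of junction reads against gene reads shows these libraries along the baseline. Since the authors removed some junction reads before deposit, a listed 0 is not a measured 0, and an absence of spliced Pomc RNA cannot be read from these values.

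**Figure D2:**
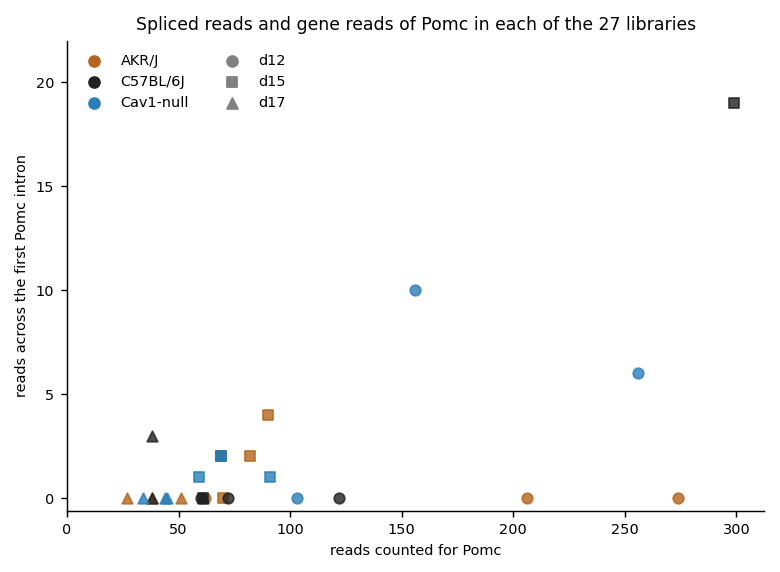
Reads across the first Pomc intron (y axis) against all reads counted for Pomc (x axis) in each of the 27 libraries, with colour for the strain and shape for the day. The 2 AKR/J d12 libraries with 206 and 274 gene reads have 0 junction reads, and C57BL/6J d15 replicate 1, with 299 gene reads, has 19.

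Tshb was the other hormone gene with reads in all 27 libraries, from 2 to 49. In AKR/J its level was 0.248, 1.02 and 0.880 CPM on d12, 0.637, 1.14 and 0.623 CPM on d15, and 1.60, 1.39 and 1.01 CPM on d17. In C57BL/6J it was 0.384, 0.123 and 0.0644 CPM on d12, 0.650, 0.784 and 0.907 CPM on d15, and 0.482, 0.736 and 0.383 CPM on d17. In Cav1-null mice it was 1.02, 0.534 and 0.754 CPM on d12, 1.5, 0.644 and 0.935 CPM on d15, and 1.31, 0.740 and 1.32 CPM on d17. Within AKR/J and Cav1-null mice the days overlapped, and the C57BL/6J d12 libraries were the lowest of their strain, overlapping d17 in 1 library.

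Tshb was called in none of the comparisons fitted on their own libraries by edgeR. In 1 model of all 27 libraries edgeR called it in the early phase of C57BL/6J, in that over the 3 strains, and in both strain comparisons on d12. Its largest change between days was in the early phase of C57BL/6J, at 1.98 ± 0.61 (adjusted p = 0.0649, edgeR), which DESeq2 called (adjusted p = 0.0239). Between strains its largest differences were on d12, at 1.99 ± 0.84 for AKR/J and 2.01 ± 0.66 for Cav1-null over C57BL/6J, with adjusted p = 0.103 and 0.142 in edgeR. The model of all 27 libraries gave adjusted p = 0.00933 and 0.0350 (edgeR). The Cav1-null and C57BL/6J libraries of d12 did not overlap. On d17 AKR/J differed from C57BL/6J by 1.31 ± 0.39, with no overlap between the libraries and adjusted p = 0.160 in edgeR, and the difference was called without C57BL/6J d17 replicate 2 (adjusted p = 0.0205, edgeR).

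The annotation around Tshb bears on what its reads can mean. On GRCm39 the gene lies on chromosome 3 from 102682781 to 102690034 on the - strand. One of its 7 transcripts is a retained intron of 4396 bases, while the exons of the spliced transcripts cover 674 bases. The gene also lies inside an intron of 1 of the 11 transcripts of Tspan2, a tetraspanin gene on the opposite strand with 382 to 950 reads a library. The map of the locus shows that the 2 genes share no exonic base. How reads of introns and of the opposite strand were counted is not given in the sources used here, so that reads from unspliced Tspan2 RNA and from Tshb cannot be told apart. Cga, whose product pairs with that of Tshb to make thyrotropin, was at 0 in 22 of the 27 libraries in which Tshb had reads.

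**Figure D3:**
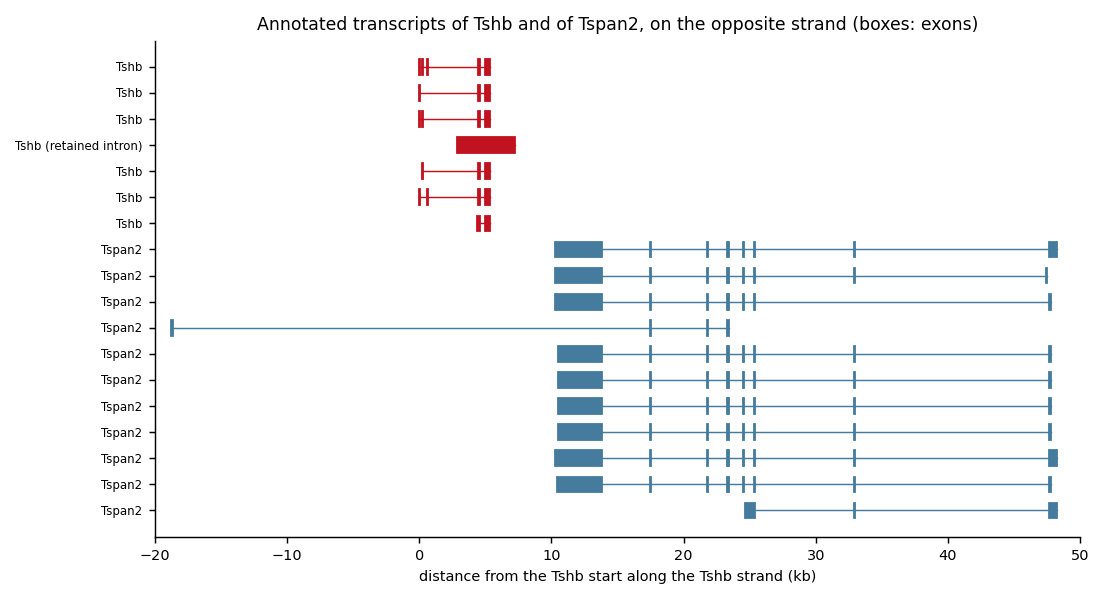
Annotated transcripts of Tshb (red, 7) and Tspan2 (blue, 11), 1 per line, by distance in kb from the Tshb start along the Tshb strand (x axis), with boxes for exons and lines for introns. A single Tspan2 transcript runs across Tshb, and its exons lie outside it, while the retained-intron transcript of Tshb is 1 box of 4396 bases.

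The genes most like Tshb in their pattern were the unnamed transcripts 4932443L11Rik at r = 0.76, Gm16096 at r = 0.75 and Gm42869 at r = 0.75.

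Cga, Prl and Gh were rarely seen. Cga had 27 reads, with 10 in C57BL/6J d15 replicate 1, 9 in Cav1-null d12 replicate 3, 6 in AKR/J d15 replicate 2, and 1 each in AKR/J d12 replicate 1 and Cav1-null d15 replicate 2. The 3 highest counts were in the 3 libraries with muscle regulators, which held 92.6% of all Cga reads. The lncRNA Platr9, on the opposite strand, shares 306 exonic bases with Cga and had 20 reads in all. Reads of the shared bases cannot be told apart if the counting did not use the strand. Prl had 4 reads in C57BL/6J d15 replicate 1 and 2 in AKR/J d17 replicate 2. Prl had no read in the AKR/J d12 libraries, the ones with most reads of its placental relative Prl8a2. Gh had 2 reads, in C57BL/6J d17 replicate 3.

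Among the regulators, Pou1f1 had 60 reads in 12 libraries, with 28 in C57BL/6J d15 replicate 1 and at most 8 in any other. By reads, that library thus had the highest counts of Pou1f1, Cga, Prl and Pomc, while its Pomc level of 8.10 CPM ranked 3 of 27. The same library also had the 17 reads of Tbx19. Summed over Pou1f1, Cga, Prl, Gh and Tbx19 it had 59 reads, followed by 17 in Cav1-null d12 replicate 3, 13 in AKR/J d15 replicate 2 and 9 or fewer in the other 24.

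**Figure D4:**
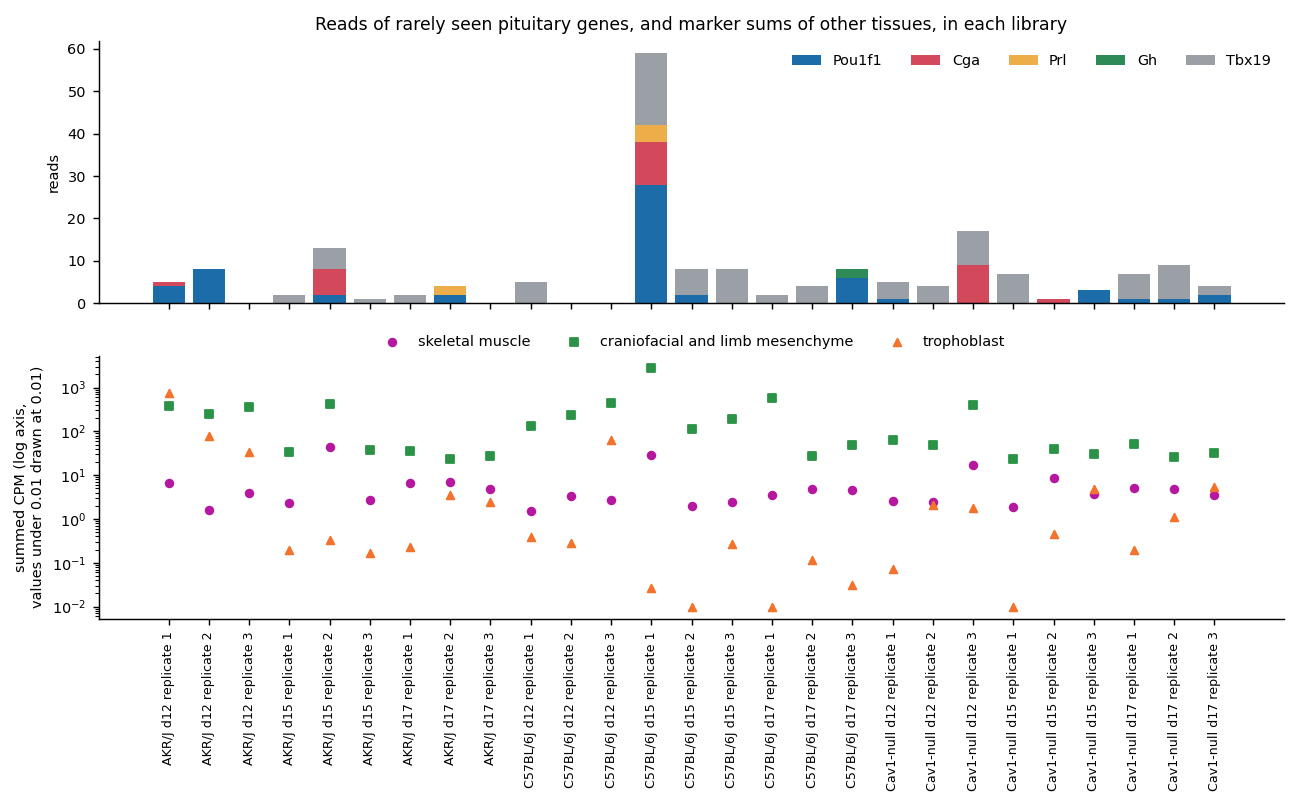
Upper panel, reads of Pou1f1, Cga, Prl, Gh and Tbx19 stacked for each library. Lower panel, summed CPM of the markers of skeletal muscle, of craniofacial and limb mesenchyme and of trophoblast on a log axis. The 3 tallest bars, with 59, 17 and 13 reads, are the 3 libraries with the highest muscle sums.

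These 3 libraries also had reads of other tissue outside the brain. Their summed level of 6 skeletal muscle genes was 43.4 CPM in AKR/J d15 replicate 2, 29.1 CPM in C57BL/6J d15 replicate 1 and 17.2 CPM in Cav1-null d12 replicate 3, with reads of all 6 genes, and at most 8.44 CPM elsewhere. For 8 genes of craniofacial and limb mesenchyme it was 430, 2796 and 395 CPM, and for 8 genes of oral and surface epithelium 72.1, 19.7 and 39.1 CPM. In the other 24 libraries the mesenchyme sum spanned 23.0 to 580 CPM and the epithelium sum reached 154 CPM in AKR/J d12 replicate 1. The mesenchyme sum of C57BL/6J d15 replicate 1, the library with most reads of these pituitary genes, lay far above all others through Col1a1. That gene alone was at 2700 CPM there, with 99688 reads against at most 15898 elsewhere. No other gene of the list had its highest count in that library. The part of such tissue in the reads of pituitary genes was not tested.

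The change of these genes with the day was tested by an exact permutation test, two-sided, of the mean CPM of 9 d12 and 9 d17 libraries, permuting the days within each strain in all 8000 ways. Cga was at 0.0306 CPM on d12 and at 0 on d17 (exact p = 0.5). Pou1f1 was at 0.0525 and 0.0434 CPM (exact p = 0.85). Prl and Gh were at 0 on d12 and at 0.00790 and 0.00708 CPM on d17 (exact p = 1 for both). With reads in 1 library of the 18, Prl and Gh could give no p under 1, and Cga, with reads in 2 libraries of different strains, none under 0.5. Adjusted over the 4 tests all p-values were 1. Over the 9 libraries of a day 3 reads correspond to 0.0113 CPM on d12 and 0.0108 CPM on d17. The means of Prl and Gh lay under this on both days, and those of Pou1f1 lay above it on both.

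The promoter sequences of Prl and Pou1f1 are shown because the 2 genes had their highest counts in the same library and because POU1F1 is known to bind both promoters. They are the 250 bases before the RefSeq start, from the table of build GRCm38.p6, matched once and without mismatch to GRCm39, 5′ to 3′ on the gene's strand. Capitals mark TATNCAT, a short form of the POU1F1 motif searched on both strands.
Prl, chr13:27241303-27241552, + strand: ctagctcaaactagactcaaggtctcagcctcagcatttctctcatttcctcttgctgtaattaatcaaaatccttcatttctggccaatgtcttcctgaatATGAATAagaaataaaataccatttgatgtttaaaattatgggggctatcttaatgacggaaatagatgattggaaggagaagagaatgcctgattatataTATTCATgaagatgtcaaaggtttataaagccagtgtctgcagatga
Pou1f1, chr16:65317148-65317397, + strand: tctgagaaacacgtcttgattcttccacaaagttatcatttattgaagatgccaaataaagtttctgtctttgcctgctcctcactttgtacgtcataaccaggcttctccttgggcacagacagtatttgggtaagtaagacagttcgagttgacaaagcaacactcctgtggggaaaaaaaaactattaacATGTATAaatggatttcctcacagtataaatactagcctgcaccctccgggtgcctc

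The motif began 148 bases before the Prl start on the opposite strand and 47 bases before it on the gene's strand, and 57 bases before the Pou1f1 start on the opposite strand. It occurred in 7.92% of 32851 promoters of this length. The table matched 6 of the 8 genes with 8 promoters, and the motif was in these 2. The letters TAATCC, bound by PITX1 and its relatives, were in 6.25% of all promoters and in none of the 8. A match is a description of these letters and not of a bound site.

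Lhx3 had 642 reads, with 0 to 124 a library. In AKR/J its level was 0.0825, 0.340 and 0.311 CPM on d12, 0.764, 1.20 and 2.72 CPM on d15, and 0.327, 0.960 and 0.849 CPM on d17. The d15 libraries of AKR/J lay above its d12 libraries without overlap. In C57BL/6J it was 0.0320, 0.185 and 0.612 CPM on d12, 1.95, 0.116 and 1.49 CPM on d15, and 0.688, 0.736 and 0.606 CPM on d17. In Cav1-null mice it was 0, 0.565 and 3.22 CPM on d12, 0.593, 0.354 and 0.0334 CPM on d15, and 0.573, 0.168 and 0.0943 CPM on d17. Cav1-null d12 replicate 3, one of the libraries with muscle regulators, held the highest value of all, next to a library of its group with no read.

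From d12 to d15 Lhx3 rose in AKR/J, by 2.61 ± 0.70 on the log2 scale (adjusted p = 0.0257, edgeR's quasi-likelihood test). It was the 1 call among the 4 members there, against 28.9% of all genes tested. The call was kept without d15 replicate 2, the AKR/J library with muscle regulators, at 2.77 (adjusted p = 0.0487, edgeR). It was lost without d12 replicate 1, at 2.22, without d12 replicate 3, at 2.80, and without d15 replicate 3, at 1.99. It was also lost in 1 model of all 27 libraries, at 2.67 (adjusted p = 0.0700, edgeR). In C57BL/6J the early change was 2.06 ± 1.08 (adjusted p = 0.212) and in Cav1-null mice it was -1.99 ± 1.26 (adjusted p = 0.293), both by edgeR. Over the 3 strains it was 0.94 ± 0.91 (adjusted p = 0.432, edgeR), and it was called, at 2.33 (adjusted p = 0.0157, edgeR), without the Cav1-null libraries. It was not called without the AKR/J libraries, at 0.04, or without the C57BL/6J libraries, at 0.25. Nor was it called without the 3 libraries with muscle regulators, at 1.57.

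Markers of motor neurons and V2 interneurons were also compared between these libraries. The summed level of 7 such genes was 4.09, 7.55 and 16.1 CPM in AKR/J d12 and 19.2, 22.3 and 49.5 CPM in AKR/J d15, with reads of 5 or 6 genes on d12 and of 6 or 7 on d15. Sox14, a gene of V2 interneurons and of other neurons of the brain, held most of the sum on d12, at 3.34, 5.20 and 10.1 CPM, and was at 11.7, 8.67 and 18.8 CPM on d15. Isl2, a gene of motor neurons, was at 0.413, 1.90 and 3.52 CPM on d12 and at 0.0955, 2.11 and 1.54 CPM on d15. The d12 and d15 libraries thus overlapped in both genes. Mnx1, a gene of motor neurons, was at 0 in all of these libraries except d15 replicate 3, which had 6 reads of it and the highest sum of the list among the 27 libraries. Lhx4, the close relative of Lhx3, had 8, 4 and 45 reads on d12 and 86, 108 and 201 reads on d15. The genes most like Lhx3 over the 27 libraries were Prph, which encodes the intermediate filament of motor and sensory neurons, at r = 0.82, Ppp1r1c at r = 0.76 and Hoxaas2, an antisense transcript of the Hoxa cluster, at r = 0.75. The part of these cells in the rise of Lhx3 was not tested. A lncRNA on the opposite strand, Gm27196, shares 188 exonic bases with Lhx3 and had at most 13 reads.

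Pitx1 had 899 reads, with 3 to 134 a library. In AKR/J its level was 1.73, 1.29 and 1.66 CPM on d12, 0.541, 4.03 and 0.393 CPM on d15, and 0.229, 0.107 and 0.751 CPM on d17. In C57BL/6J it was 0.128, 2.19 and 1.45 CPM on d12, 2.27, 1.22 and 1.46 CPM on d15, and 0.894, 0.412 and 0.638 CPM on d17. In Cav1-null mice it was 0.598, 0.722 and 2.47 CPM on d12, 0.558, 0.548 and 0.367 CPM on d15, and 0.542, 0.605 and 0.660 CPM on d17. The 3 highest values, 4.03, 2.47 and 2.27 CPM, were those of the libraries with muscle regulators, which held 34.8% of all Pitx1 reads.

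On d15 Pitx1 was lower in Cav1-null than in C57BL/6J mice, by a log2 difference of -1.71 ± 0.35 (adjusted p = 0.00188, edgeR's quasi-likelihood test), with no overlap between the 3 and 3 libraries. It was the 1 call among 4 members there, in a comparison in which 58.6% of all genes tested were DE. Without C57BL/6J d15 replicate 1, the library with muscle regulators, the difference was -1.41 (adjusted p = 0.0105, edgeR), and in 1 model of all 27 libraries it was -1.74 and was not called (adjusted p = 0.102, edgeR). AKR/J differed from C57BL/6J by 0.11 ± 0.84 on d15 (adjusted p = 0.936, edgeR), and without AKR/J d15 replicate 2 by -1.79 (adjusted p = 0.0128, edgeR). Over the 3 strains the late change of Pitx1 was -1.11 ± 0.48 (adjusted p = 0.0718, edgeR), and -0.35 without the 3 libraries with muscle regulators.

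The genes most like Pitx1 were Cspg4b and Mmp2, which encodes a matrix metalloproteinase of connective tissue, at r = 0.84 each, and Poglut3 at r = 0.83. The mesenchyme sum in the comparison on d15 was 23.8 to 38.7 CPM in Cav1-null and 111 to 2796 CPM in C57BL/6J, and reads of all 8 genes of that list were found in the 3 C57BL/6J libraries. Col1a1 alone made 2700 CPM of the highest sum. The part of mesenchyme in the difference was not tested. The lncRNA Gm47071, on the opposite strand, shares 165 exonic bases with Pitx1 and had 105 to 275 reads, so that reads of the shared bases cannot be told apart if the counting did not use the strand.

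**Figure D5:**
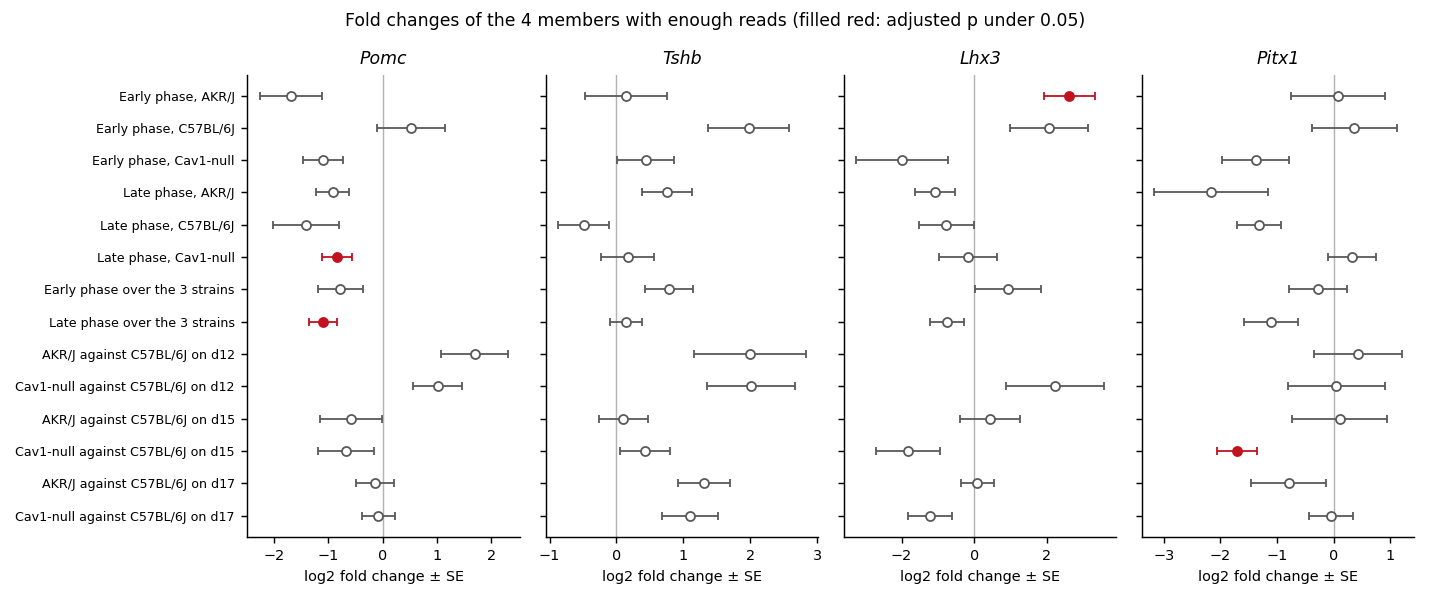
Log2 fold change ± SE (x axis, a scale for each gene) of Pomc, Tshb, Lhx3 and Pitx1 in the phases (later day over earlier day) and between strains (named strain over C57BL/6J), with edgeR calls filled in red. Of these values 4 are called, at -1.09 and -0.85 for Pomc, 2.61 for Lhx3 and -1.71 for Pitx1.

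In all, 71 tests of members were made in 18 comparisons, and edgeR called 4 of them, with 21 at an unadjusted p under 0.05 and 13 called by DESeq2. In the other 14 comparisons edgeR called no member, with 15 tests at an unadjusted p under 0.05 and 6 calls by DESeq2. The share of all genes tested that were DE in those comparisons was 14.9% in the early phase of C57BL/6J, 23.4% in that of Cav1-null mice and 43.6% over the 3 strains. From d15 to d17 it was 22.1% in AKR/J and 13% in C57BL/6J. Between AKR/J and C57BL/6J it was 28.6% on d12, 41.1% on d15 and 0.742% on d17. Between Cav1-null and C57BL/6J it was 0.0% on d12, where DESeq2 called 2044 genes and 4309 of 19475 had an unadjusted p under 0.05 in edgeR, and 0.0491% on d17. For differences between strains in the early phase it was 0.0711% for AKR/J and 0.00472% for Cav1-null, and in the late phase 0.00468% and 0.252%. Comparisons with C57BL/6J share its libraries. No interaction of the 16 tested in members was called, and 3 of them had an unadjusted p under 0.05 in edgeR.

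The other genes of the axis were read from fixed lists over the 3 strains. Of 14 further transcription factors of the pituitary, 11 could be tested, and 4 fell and none rose in the early phase, against 22.2% lower and 21.4% higher among all genes. In the late phase 9 fell and none rose, against 21.8% and 18.3%. The list had a median change of -0.44 from d12 to d15 and of -0.94 from d15 to d17, while all genes had a median of -0.02 in both. Isl1, with the highest mean level of the list at 42.6 CPM, fell by 0.53 ± 0.13 in the late phase (adjusted p = 0.00426, edgeR), Foxl2 fell by 1.30 ± 0.33 in the early phase and Gata2 by 1.30 ± 0.22 in the late phase. Isl1, Gata2 and Pax7 are also genes of neurons of the brain, and Hesx1 and Tbx19, which had at most 8 and 17 reads a library, were not tested.
Without the 3 libraries with muscle regulators 5 of these factors fell early and 7 fell late. The mesenchyme list moved the same way, with 5 of 6 genes lower early and 2 of 5 lower late (2 of 6 early with library sizes alone). Without the 3 libraries, though, its late median was -0.11 in place of -1.05, with 1 of 5 lower, while that of the factors was -0.82. The part of such tissue in the fall of the factors was not tested.

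Genes that act on the pituitary, or that its hormones act on, were read in the same way. Of 7 further hormones and receptors of releasing hormones 3 could be tested, and 2 rose in each phase. Crhr1, the receptor of corticotropin-releasing hormone and the highest of the list at 7.53 CPM, rose by 1.66 ± 0.29 in the early phase, and Trhr, the thyrotropin-releasing hormone receptor, by 1.34 ± 0.16 in the late phase. Both receptors are also made by neurons of the brain. Of 8 signals that pattern the pituitary, 3 fell early, 2 fell late and none rose, with Fgf8 at -2.19 ± 0.39 early and Shh at -0.95 ± 0.19 late, while Tcf7l2, the highest at 195 CPM, was not called in either. With library sizes alone 1 of these signals rose late, and without the 3 libraries with muscle regulators 2 rose. Among hypothalamic neuropeptides and regulators 3 rose and 2 fell of 12 in the early phase, and 5 rose and 3 fell of 13 in the late phase. Among all genes 21.4% rose and 22.2% fell early, and 18.3% and 21.8% late, and 3 of the list rose late both without the 3 libraries with muscle regulators and without the AKR/J libraries. Crh, which drives Pomc cells of the pituitary, rose by 2.59 ± 0.54 in the early phase, Avp by 1.84 ± 0.41 in the late phase, and Sst, the highest at 44.4 CPM, by 0.93 ± 0.25 and 0.33 ± 0.10.

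Of 9 genes of prohormone processing and secretory granules 8 rose in the early phase, against 21.4% of all genes. Later, from d15 to d17, 4 of them rose and 1 fell, against 18.3% and 21.8% of all genes. Without the AKR/J libraries 3 rose in the early phase. Scg2, a granin, rose by 1.67 ± 0.29 and 0.80 ± 0.10, and Cpe, the carboxypeptidase that trims prohormones and the highest at 284 CPM, was not called in either phase. Neurons use the same genes for their own neuropeptides. Of 8 receptors of pituitary hormones tested, 4 rose and none fell in each phase over the 3 strains. The shares among all genes were 21.4% higher and 22.2% lower early, and 18.3% and 21.8% late. The melanocortin receptor Mc4r was at 2.64 ± 0.26 early and the prolactin receptor Prlr at 1.58 ± 0.14 late, although Prl itself was at 0 in 25 libraries. Ghr, the highest of these at 16.8 CPM, was not called in either phase.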

How the data were processed

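Poly-A RNA was sequenced from 27 fetal whole brains. The authors trimmed reads, aligned them with STAR to GRCm39 and deposited raw read counts per gene and per splice junction. The counting tool, its use of strand and of reads with several matches are not given in the sources used here. The members and gene lists were chosen with earlier results of these data known. Members were matched by symbol. CPM used TMM-scaled library sizes, and levels between genes were divided by annotated exonic length. Each comparison was fitted on its own libraries, over all genes that passed filterByExpr, by edgeR's quasi-likelihood test (edgeR 4.0.16, R 4.3.3) with Benjamini-Hochberg adjustment, and genes with adjusted p under 0.05 were called DE. Comparisons over the 3 strains had strain as a term. Members that the filter removed were tested by exact permutation. The scripts were tested on simulated data. Alternatives were DESeq2 1.42.0, RLE size factors, no filter, 1 model of all 27 libraries, a replicate block and each library or strain left out; library sizes alone and the omission of the 3 libraries with muscle regulators were chosen after seeing the data. In each list the gene with the highest mean CPM and the DE genes with the largest change in each phase were named. Some genes of the lists are counted but not reported by name here.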

Additional observations from a re-analysis of the deposited data

How the results depend on the processing

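The fall of Pomc in the late phase over the 3 strains passed the threshold in every alternative run, at -0.78 to -1.16. The number of members called in a comparison changed as follows. With DESeq2 it was 2 from d12 to d15 in AKR/J, 2 between Cav1-null and C57BL/6J on d15 and 2 in the late phase over the 3 strains, and 1 (from 0) in the early phases of C57BL/6J and Cav1-null, the late phases of AKR/J and C57BL/6J, and between AKR/J and C57BL/6J on d12 and d17. With no filter on low counts it was 2 from d12 to d15 in AKR/J and between Cav1-null and C57BL/6J on d15, and 1 in the early phase of Cav1-null and between AKR/J and C57BL/6J on d12. In 1 model of all 27 libraries it was 0 in the late phase of Cav1-null and between Cav1-null and C57BL/6J on d15, 1 (Tshb) in the early phase of C57BL/6J, in that over the 3 strains and between Cav1-null and C57BL/6J on d12, and 2 between AKR/J and C57BL/6J on d12. For AKR/J from d12 to d15 that model also called 1 member, but Pomc (adjusted p = 0.0176, edgeR) in place of Lhx3. The early phase over the 3 strains had 1 call without the 3 libraries with muscle regulators (Pomc), without C57BL/6J (Pomc) and without Cav1-null (Lhx3), and the late phase 2 without Cav1-null.

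With each library left out in turn the number ranged from 0 to 2 for AKR/J from d12 to d15 and from 1 to 2 between Cav1-null and C57BL/6J on d15, where Lhx3 was added without C57BL/6J d15 replicate 2. It ranged from 0 to 1 in the early phase of Cav1-null (Pomc, without d12 replicate 3), the late phases of AKR/J (Pomc, without d15 replicate 2), C57BL/6J (Pitx1, without d17 replicate 1) and Cav1-null. It also ranged from 0 to 1 between AKR/J and C57BL/6J on d12 (Pomc, without AKR/J d12 replicate 2), d15 (Pitx1, without AKR/J d15 replicate 2) and d17 (Tshb, without C57BL/6J d17 replicate 2), and in the differences between strains (Pomc early in AKR/J, Pitx1 late in Cav1-null without C57BL/6J d17 replicate 1).

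Replicate numbers did not pair the samples: correlations of same-numbered deviations were -0.479 to 0.402, and in 0 of 12 comparisons were all over 0.1. With the replicate block 1 member was called in the late phase of C57BL/6J (Pitx1) and 1 between AKR/J and C57BL/6J on d12 (Pomc), and no other number of calls changed. Of the genes with too few reads, Prl changed sign to -0.00414 CPM with d15 as the earlier day (exact permutation p = 1), and Pou1f1 to 0.0113 on the log2(CPM + 0.1) scale (exact permutation p = 0.948). With library sizes alone the share of DE genes that were higher was 62.8% in the early phase over the 3 strains, against 49.1% with TMM. In the early phase of AKR/J it was 74.7% against 51.4%, and between AKR/J and C57BL/6J on d12 it was 30.2% against 50.6%. The causes were not tested.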

Other observations

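The lists of other cell types were read over the 3 strains by edgeR's quasi-likelihood test. In these fits 21.4% of all genes rose and 22.2% fell early, and 18.3% rose and 21.8% fell late. Of 6 genes of motor neurons and V2 interneurons tested, 2 rose in the early phase, with Slc18a3, the vesicular acetylcholine transporter, at 1.76 ± 0.58. Without the AKR/J libraries 0 of 6 rose, and the median of the list was -0.22 in place of 0.92. In the model of all strains 3 fell in the late phase, with Isl2 at -1.79 ± 0.63. Sox14 was the highest of that list, at 12.0 CPM. None of 8 genes of oral and surface epithelium was called in the early phase and 2 of 5 fell in the late phase (0 of 6 without the 3 libraries with muscle regulators), with Epcam at -1.43 ± 0.49 and Krt18 the highest at 4.34 CPM. Twist1 led the falls of mesenchyme genes, at -2.22 ± 0.65 early and -1.88 ± 0.53 late, and Col1a1 was the highest at 182 CPM. Of the muscle genes Acta1, the highest at 2.90 CPM, rose by 1.76 ± 0.60 in the early phase and Actc1 fell by 2.75 ± 0.87 in the late phase, where without those 3 libraries 2 muscle genes rose and none fell. Embryonic globins fell, with Hbb-bh1 at -7.91 ± 1.01 early and Hbb-y at -6.18 ± 0.43 late, and Hbb-y was the highest at 11017 CPM. Of the erythroid list 3 of 8 fell early, while 1 rose and 2 fell late. Without the AKR/J libraries 2 rose and 2 fell early, with a median of -0.01 in place of -1.06, and none rose late, while with library sizes alone 3 rose late. No trophoblast gene could be tested, and Prl8a2 was the highest at 25.6 CPM. Of 6 brain genes 2 rose and 2 fell early, and 1 rose and 3 fell late. Nes, the intermediate filament of neural progenitors, fell by 1.12 ± 0.18 and 1.55 ± 0.23, and Map2 was the highest at 1193 CPM.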
